A study of Mus musculus with 3 samples.

Results

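Transcripts of 10 WNT pathway genes were followed through single-cell RNA-seq of mouse embryonic stem cells (mESCs) differentiating towards tendon and fibrocartilage, and of embryonic tail cells. The genes were chosen by name (*Wnt3a*, *Wnt5a*, *Rspo3*, *Dkk1*, *Sfrp2*, *Lef1*, *Tcf7*, *Axin2*, *Nkd1* and *Sp5*) and are 10 of the 28953 genes in the deposited count tables. The rule uses no measured value, but the genes were chosen with earlier results of these data known. All 10 have a row for the D10 culture and the E14.5 tail, and 9 have a row for D6. *Wnt3a* was not analysed at D6.

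The 3 libraries were D6 PM, D10 culture and E14.5 tail, with 1 library for each. The D6 PM cells were ScxGFP reporter mESCs, labelled as embryoid bodies and given the BMP receptor inhibitor LDN-193189 at 500 nM from day 0 to day 6 and the GSK3 inhibitor CHIR at 5 μM from day 2 to day 6 to obtain paraxial mesoderm (PM). The D10 culture had the same treatment up to day 6 and was then kept to day 10, labelled as a monolayer, with TGFβ1 at 10 ng/mL, the Smoothened agonist SAG at 100 nM and FGF2 at 10 ng/mL. The E14.5 tail cells came from mouse embryos at stage E14.5, and the sources used here do not say how many embryos were pooled. D6 and D10 therefore differed in CHIR, in LDN-193189, in the later factors, in day, in culture format as labelled and in cell makeup. These differences cannot be told apart.

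WNT ligands are secreted proteins that bind Frizzled and LRP receptors. In the canonical branch this stops a complex containing AXIN and GSK3 from destroying β-catenin, which then enters the nucleus and works with the HMG-box factors TCF and LEF on target genes. CHIR acts on the same complex from inside the cell by blocking GSK3, with no ligand needed. Canonical WNT signalling is known for forming and patterning paraxial mesoderm, and several of its target genes encode proteins that restrain the pathway in turn.

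D6 PM held 5954 cells with a median of 8171 UMIs (unique molecular identifiers, each standing for 1 captured transcript). The D10 culture held 7821 cells with a median of 5622, and the E14.5 tail 2052 cells with a median of 13512. Cells carried the authors' deposited cluster codes, 6 at D6, 14 at D10 and 13 in the tail. At D6 the paper describes more clusters and more cells than these counts hold, so its D6 cluster numbers are not these codes. Codes with at least 50 cells are described. Levels are CPM, counts per 1e6 UMIs of all genes, after the counts were summed over the cells of a code or library. With 1 library per condition there is no replicate spread and no test, and every 95% interval below is an exact counting interval that covers counting error only. A gene was counted as higher or lower where its CPM differed at least 2-fold, provided the 2 sides summed to 100 or more UMIs. The clusters were built from these same counts, so differences between codes of a library are a description.

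Names for the codes were set here from marker genes. D6 code 1 (2539 cells) and the dividing code 3 (821 cells) were endoderm-like, with *Sox17* at 519 CPM in code 1. D6 code 2 (1038 cells) was pluripotent-like, with *Pou5f1* at 460 CPM and *Nanog* at 326 CPM. D6 code 4 (700 cells) was somite-like, with *Meox1* at 187 CPM, *Foxc1* at 221 CPM and *Tcf15* at 113 CPM. *Tbx6*, which defines presomitic mesoderm, was near 0 there, at 0.987 CPM. The library labelled PM was thus mostly not somite-like by these markers, since code 4 holds 700 of its 5954 cells. D6 code 5 (662 cells) had high *Col1a1*, *Dcn* and *Postn* and stays unnamed. The genes leading it by fold included the macrophage genes *Cd5l*, *Cd53* and *Clec4n* and the placental genes *Prl8a9* and *Prl2c2*. They also included the matrix metalloproteinase genes *Mmp13* and *Mmp10*, the chemokine gene *Ccl7* and the Y-linked gene *Eif2s3y*. Of its 662 cells, 632 had 0 macrophage marker UMIs. The study kept undifferentiated mESCs on feeder fibroblasts, and the origin of the code 5 cells was not tested. D6 code 6 (194 cells) had the endothelial genes *Kdr* and *Cdh5* together with red blood cell genes. At D10, code 3 was pluripotent-like and code 4 cartilage-like. Code 3 holds 1088 D10 cells, the number the paper lists for the cluster it reads as fibrocartilage, so the names here differ from the paper's. In the tail, code 4 was cartilage-like, code 5 muscle-like and code 8 epidermis-like. Codes 1 and 2 of D10 and tail are called *Scx*-high after *Scx*, a transcription factor of tendon progenitors, and given no cell type. *Scx* was 2410 and 2699 CPM in D10 codes 1 and 2, and 1472 and 1664 CPM in tail codes 1 and 2. In the cartilage-like codes it was 1852 CPM at D10, below D10 codes 1 and 2, and 1905 CPM in the tail, above tail codes 1 and 2. The genes leading tail code 1 by fold included the smooth muscle and pericyte genes *Actg2*, *Rgs5*, *Myh11* and *Cnn1* with the tendon gene *Thbs4*. Those leading D10 code 1 included *Actg2*, *Myh11*, *Heyl* and *Foxs1* with the tendon gene *Tnmd*. Cell cycle genes led code 2 in both.

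**Figure D1:**
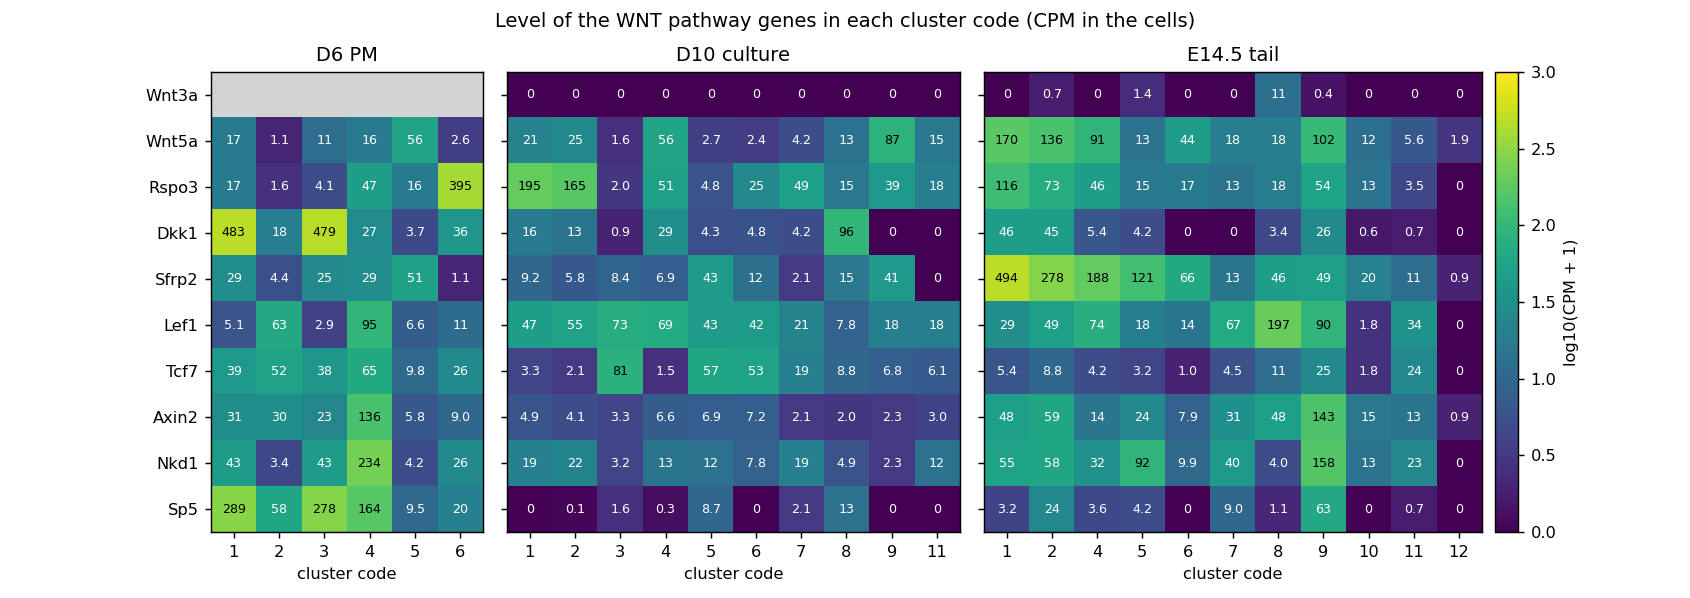
Level of each of the 10 genes (rows) in every cluster code with at least 50 cells of the 3 libraries (columns), with CPM printed in each cell and the colour set by log10(CPM + 1), grey where a gene was not analysed. The canonical targets *Axin2* and *Nkd1* peak in code 4 at D6 and in code 9 of the tail, while *Dkk1* and *Sp5* peak in the endoderm-like codes 1 and 3 at D6.

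*Wnt3a* encodes a canonical ligand of the tail bud and the dorsal neural tube. It was scarce in these cells. The tail library held 47 *Wnt3a* UMIs, or 1.5 CPM. The D10 culture held 0 UMIs, which allows a level of up to 0.0562 CPM at 3 counts. Of the 47 tail UMIs, 20 lay in code 8, at 11.5 CPM, and 20 in code 3, a code of 49 cells with epidermal genes, at 16.7 CPM.

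*Wnt5a* encodes a ligand best known for signalling without β-catenin. Its level over the whole library was 16.1 CPM at D6, 16.9 CPM at D10 and 97.6 CPM in the tail. The culture levels differed little and the tail stood above both. At D6 the code levels were 16.8, 1.07, 10.7, 16.3, 56.1 and 2.64 CPM for codes 1 to 6. The unnamed code 5 was the highest and the pluripotent-like code 2 the lowest. Within code 5 *Wnt5a* was 58.8 CPM in the 632 cells without a macrophage marker UMI, 51.3 CPM in the 14 cells with 1 and 3.83 CPM in the 16 cells with at least 2. At D10 *Wnt5a* was highest in code 9, at 86.6 CPM in 53 cells, and was 55.9 CPM in the cartilage-like code 4, 3.90-fold above the other cells (3.30 to 4.58). In the tail it was 170 CPM in the *Scx*-high code 1, 2.71-fold above the other cells (2.52 to 2.91).

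*Rspo3* encodes R-spondin 3, a secreted agonist that raises the number of WNT receptors at the cell surface. Its level was 28.6 CPM at D6, 99.7 CPM at D10 and 61.1 CPM in the tail. D6 was the lowest of the 3 libraries and D10 the highest. At D6 the levels in codes 1 to 6 were 16.6, 1.64, 4.06, 46.7, 16.4 and 395 CPM. Code 6, with 194 cells, held 50.5% of the D6 *Rspo3* UMIs, at 26.9-fold the level of the other cells (24.3 to 29.9). The 164 cells of code 6 without a red blood cell UMI had 492 CPM, and the 29 cells with at least 2 such UMIs had 65.1 CPM. The 153 cells with at least 2 endothelial UMIs had 469 CPM, against 28.9 CPM in the 13 cells with 1, from 4 UMIs, and 179 CPM in the 28 cells with none. At D10 the highest *Rspo3* lay elsewhere, in the *Scx*-high codes, at 195 CPM in code 1 and 165 CPM in code 2. Tail code 1 had 116 CPM, 3.29-fold above the other tail cells (3.0 to 3.62).

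*Dkk1* encodes a secreted antagonist that occupies the LRP5 and LRP6 co-receptors, and it is itself a canonical target. The whole-library level was 249 CPM at D6, 13 CPM at D10 and 24.4 CPM in the tail, so D6 stood far above the others. At D6 the levels in codes 1 to 6 were 483, 18.4, 479, 26.8, 3.73 and 36.4 CPM. The endoderm-like codes 1 and 3 held 68.0% and 28.3% of the *Dkk1* UMIs. In codes 2 and 4 *Dkk1* was close to the share of the code 1 level at which endoderm genes were also found. *Dkk1* in code 2 was 3.81% of its level in code 1, and the endoderm genes *Sox17*, *Foxa1* and *Foxa2* were there at 4.73%, 5.41% and 4.84% of theirs. In code 4 *Dkk1* was at 5.55% and the same genes at 4.53%, 4.62% and 5.51%. The UMIs were concentrated in a few cells. In code 2, 10 of the 1038 cells held 57.6% of the *Dkk1* UMIs, with up to 22 in a cell, and in code 4, 10 of the 700 cells held 69.9%, with up to 32. Why these genes were found there was not tested, and no *Dkk1* expression by the somite-like or pluripotent-like cells is read from them. At D10 *Dkk1* was 95.6 CPM in code 8, an epithelial and endoderm-like code of 155 cells, and 29.5 CPM in the cartilage-like code 4. In the tail it was 45.5 CPM in code 1 and 45.5 CPM in code 2.

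*Sfrp2* encodes a secreted Frizzled-related protein that binds WNT ligands. Its level was 23.9 CPM at D6, 12.7 CPM at D10 and 238 CPM in the tail. The tail stood far above both culture libraries. At D6 the codes ran from 1.06 CPM in code 6 to 50.7 CPM in code 5. The highest D10 code of at least 50 cells was code 5, a mixed code with pluripotency, neural and muscle genes, at 43.4 CPM. In the tail, the *Scx*-high code 1 had 494 CPM, 4.23-fold above the other cells (4.03 to 4.44).

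*Lef1* and *Tcf7* encode HMG-box partners of β-catenin. *Lef1* was 29.3 CPM at D6, 53.1 CPM at D10 and 55.5 CPM in the tail. *Tcf7* was 41.2, 28.5 and 8.42 CPM in the same order. Within D6, *Lef1* was high in the pluripotent-like code 2, at 63.3 CPM, and the somite-like code 4, at 94.9 CPM, and between 2.88 and 10.6 CPM in the other 4 codes. *Tcf7* was more even, from 9.83 CPM in code 5 to 65.2 CPM in code 4. At D10 *Tcf7* was highest in the pluripotent-like code 3, at 80.8 CPM, 5.86-fold above the other cells (5.28 to 6.51), and *Lef1* was 72.6 CPM there. In the tail *Lef1* was 197 CPM in the epidermis-like code 8, 4.19-fold above the other cells (3.71 to 4.72).

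*Axin2* encodes a scaffold of the β-catenin destruction complex and is widely used as a readout of canonical signalling. Its level was 38.1 CPM at D6, 4.72 CPM at D10 and 46.1 CPM in the tail. D10 was the low library. At D6 the levels in codes 1 to 6 were 30.6, 29.97, 22.9, 136, 5.76 and 8.97 CPM. The somite-like code 4 was 5.43-fold above the other cells (4.96 to 5.94) and held 41.9% of the *Axin2* UMIs. *Nkd1* encodes a cytoplasmic feedback inhibitor that binds Dishevelled. It was 51.3 CPM at D6, 14.1 CPM at D10 and 51.1 CPM in the tail. In D6 codes 1 to 6 it was 43.3, 3.45, 43.4, 234, 4.24 and 26.4 CPM. Code 4 was again the highest, 8.69-fold above the other cells (8.05 to 9.39), with 53.6% of the *Nkd1* UMIs. Code 4 also held cells with muscle genes. In the 585 cells without a UMI of the muscle markers, *Nkd1* was 259 CPM, *Axin2* 140 CPM and *Sp5* 173 CPM. In the 68 cells with at least 2 such UMIs the levels were 127, 115 and 139 CPM, and in the 47 cells with 1 they were 185, 133 and 117 CPM. *Lef1* in code 4 was 93.9 CPM with 0 such UMIs, 104 CPM with 1 and 94.8 CPM with at least 2.

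*Sp5* encodes a zinc-finger factor whose gene is a direct canonical target. Its level was 177 CPM at D6, 1.76 CPM at D10 and 10.5 CPM in the tail. At D6 codes 1 to 6 had 289, 57.7, 278, 164, 9.50 and 19.5 CPM. *Sp5* in codes 2 and 4 was at 19.9% and 56.5% of its level in code 1, above the percentages of the endoderm genes given with *Dkk1*, and 28.3% and 55.9% of the cells had an *Sp5* UMI without thinning. At D10 the mixed code 5 held 61.7% of the *Sp5* UMIs, at 8.68 CPM, with 65.5% of these 58 UMIs in 10 of 556 cells. The smaller code 8 had 12.7 CPM, from 13 UMIs in 6 cells. The *Scx*-high code 1 held 0 UMIs, which allows up to 0.181 CPM at 3 counts.

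Of the 9 genes compared between D6 and D10 below, *Sp5*, *Dkk1* and *Axin2* had the largest ratios of D6 over D10. The start regions of these genes are shown for the letters that TCF and LEF factors bind. Windows run from 250 bases before to 50 bases after the start of the gene in RefSeq on GRCm38.p6, read 5′ to 3′ on the strand of the gene, and capitals mark CTTTGA on either strand (TCAAAG on the other). The *Sp5* window is chr2:70474673-70474972 (plus strand), the *Dkk1* window chr19:30549447-30549746 (minus strand) and the *Axin2* window chr11:108920099-108920398 (plus strand).
Sp5: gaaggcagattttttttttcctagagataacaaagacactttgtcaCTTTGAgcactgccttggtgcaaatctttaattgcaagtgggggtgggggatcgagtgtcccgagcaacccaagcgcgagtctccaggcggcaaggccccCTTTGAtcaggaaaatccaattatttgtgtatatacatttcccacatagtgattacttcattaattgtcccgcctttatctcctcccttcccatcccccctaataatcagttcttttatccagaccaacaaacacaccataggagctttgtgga
Dkk1: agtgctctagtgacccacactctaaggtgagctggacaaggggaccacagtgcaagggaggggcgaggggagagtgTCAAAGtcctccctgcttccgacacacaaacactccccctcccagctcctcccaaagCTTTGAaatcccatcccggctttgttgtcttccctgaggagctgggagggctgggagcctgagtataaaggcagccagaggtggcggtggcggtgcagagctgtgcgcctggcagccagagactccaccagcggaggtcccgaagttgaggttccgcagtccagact
Axin2: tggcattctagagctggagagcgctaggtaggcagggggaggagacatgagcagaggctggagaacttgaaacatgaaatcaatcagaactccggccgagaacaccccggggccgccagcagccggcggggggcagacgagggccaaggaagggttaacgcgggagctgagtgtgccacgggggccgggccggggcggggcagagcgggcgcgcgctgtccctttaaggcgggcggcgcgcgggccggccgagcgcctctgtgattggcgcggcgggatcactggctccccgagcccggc

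The *Sp5* and *Dkk1* windows each hold 2 matches and the *Axin2* window holds 0. A window was found for 8 of the 10 genes, 12 windows in all, and 3 of the 12 hold CTTTGA, the other being a *Lef1* window with 2 matches. Of all 32851 windows of this length, 16.0% hold CTTTGA and 1.73% hold at least 2 matches. The longer string CTTTGAT, which contains CTTTGA, was in the *Sp5* window alone of these 12, and in 3.73% of all windows. These are matches of letters and not binding sites, and a window without them says nothing of sites elsewhere.

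D6 PM was then compared with the D10 culture, the step across which CHIR was withdrawn. Of the 9 genes, 4 were at least 2-fold higher at D6, where 10.8% of all tested genes were, and 1 was at least 2-fold higher at D10, where 10% of all tested genes were. *Sp5* was 100-fold higher at D6 (82.0 to 124), *Dkk1* 19.1-fold (17.7 to 20.7), *Axin2* 8.07-fold (7.07 to 9.23) and *Nkd1* 3.64-fold (3.35 to 3.95). *Rspo3* was 3.49-fold higher at D10 (3.29 to 3.70). The remaining genes stayed within 2-fold. *Sfrp2* was 1.88-fold (1.71 to 2.06) and *Tcf7* 1.44-fold of its D10 level at D6, *Wnt5a* was 0.950-fold (0.864 to 1.05), and *Lef1* was 1.81-fold higher at D10. The *Sp5* ratio was 168 where each cell weighs the same. The endoderm-like codes 1 and 3, which held most of the *Dkk1* UMIs, were 2539 and 821 of the 5954 cells at D6. They also held 57.3% and 23.1% of the *Sp5* UMIs, and their part in the *Dkk1* and *Sp5* ratios was not tested.

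**Figure D2:**
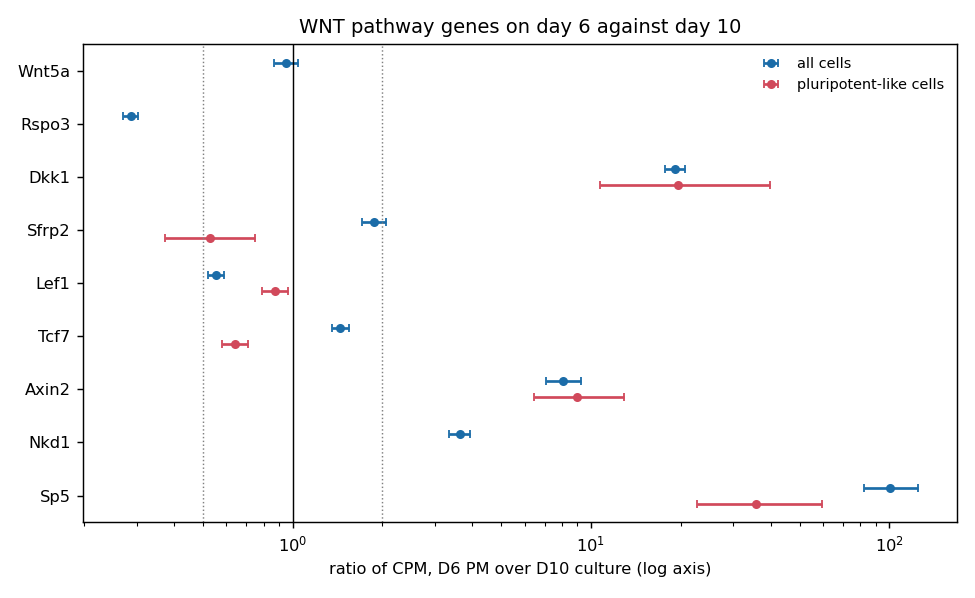
Ratio of CPM at D6 PM to CPM at D10 culture on a log axis for each gene with counts in both, over whole libraries and for the pluripotent-like cells (D6 code 2 against D10 code 3), with bars for the exact 95% counting interval and dotted lines at 2-fold. *Sp5*, *Dkk1* and *Axin2* lie to the D6 side in both comparisons (*Dkk1* in the pluripotent-like code with most UMIs in 10 cells), while *Lef1* and *Tcf7* lie within 2-fold.

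The pluripotent-like cells, D6 code 2 and D10 code 3, were compared as codes given the same name from marker genes. Between them 6 of the genes had enough UMIs. 3 of the 6 (*Sp5*, *Axin2* and *Dkk1*) were at least 2-fold higher at D6, where 3.5% of all tested genes were. The count is of code levels, and *Dkk1* in it is not read as expression by the pluripotent-like cells. Of the 6, 0 were at least 2-fold lower, where 5.16% of all tested genes were. *Sp5* was 57.7 CPM at D6 and 1.62 CPM at D10, a 35.6-fold ratio (22.6 to 59.5). *Axin2* was 29.97 and 3.33 CPM, a 9.01-fold ratio (6.47 to 12.9). *Dkk1* was 18.4 and 0.938 CPM, 19.6-fold (10.8 to 39.8), with 57.6% of its D6 UMIs in 10 cells, and the *Dkk1* ratio was 11.8 without the called doublets. The mixed D10 code 5 is not in this comparison. Its 469 cells with at least 2 pluripotency marker UMIs had *Sp5* at 8.34 CPM, *Axin2* at 6.70 CPM and *Dkk1* at 4.74 CPM, which for *Sp5* and *Axin2* lies above code 3 and below D6 code 2. For *Dkk1* no order is read, since 27 of its 29 UMIs came from a single cell. The *Sp5* value also rests on few cells, as 10 cells held 65.5% of the *Sp5* UMIs of the whole code. The 64 cells of code 5 with 0 pluripotency marker UMIs had *Sp5* at 17.1 CPM, from 6 UMIs. Both nuclear partners stayed within 2-fold. *Lef1* at D6 was 0.872-fold (0.790 to 0.963) and *Tcf7* 0.641-fold (0.579 to 0.710) of the D10 level. *Sfrp2* was 0.531-fold (0.373 to 0.747), and 0.431-fold without the called doublets. *Wnt5a*, *Rspo3* and *Nkd1* were below 100 UMIs and are not compared.

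Other genes of the pathway, from a list of 84, were read in the same way. Between whole D6 and D10 libraries 69 passed the count minimum, with 16 higher at D6 and 14 lower (10.8% and 10% of all tested genes), and the median log2 ratio of the list was 0.04. *Wnt10b*, a ligand, was 21.8-fold higher at D6. *Cdx1* and *Cdx2*, homeobox genes of the caudal embryo, were 20.3-fold and 10.7-fold higher. *Rnf43*, which encodes a ubiquitin ligase that removes Frizzled receptors, was 13.4-fold higher. On the D10 side, the antagonist *Dkk2* was 16.2-fold higher and the receptor *Fzd1* 12.2-fold higher. In the pluripotent-like cells 38 of the list were tested, 6 were higher at D6 and 1 lower (3.5% and 5.16% of all tested genes). The higher genes included *Cdx1* (21.4-fold), *Cdx2* (12.6-fold) and *Notum* (6.70-fold), which encodes a secreted enzyme that inactivates WNT ligands. The median log2 ratio of the list was 0.084, against −0.05 over all genes tested there.

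Within D6, each code was set against the other cells of the library as a description. In the somite-like code 4, 3 of the 9 genes were at least 2-fold higher, where 9.42% of all tested genes were, and 1 was lower, where 16.3% were. The 3 were *Nkd1* and *Axin2*, given above, and *Lef1*, at 4.6-fold (4.14 to 5.11). The lower gene was *Dkk1*. Of the wider list, 60 were tested in code 4, with 13 higher and 14 lower (9.42% and 16.3% of all tested genes). The higher genes included *Sostdc1* at 89.8-fold, *Wif1* at 69.6-fold, *Notum* at 18.7-fold and *Nkd2*, the paralog of *Nkd1*, at 8.62-fold. *Lgr5*, a receptor for R-spondins, was 26.4-fold lower.

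In the pluripotent-like code 2 only *Lef1* was higher, 3.34-fold, and 6 genes were lower (10.9% and 24.1% of all tested genes). In the endoderm-like code 1, *Dkk1* at 3.93-fold and *Sp5* at 2.49-fold were higher and 2 genes were lower (6.12% and 14.6%). In code 3 *Dkk1* was higher, 2.29-fold, and 2 were lower (3% and 14.8%). In code 5, *Wnt5a* at 5.12-fold and *Sfrp2* at 2.48-fold were higher and 6 were lower (15.2% and 29.1%). The *Sfrp2* value rests on few cells, with 57.9% of its UMIs in 10 of the 662 cells. In code 6 *Rspo3* alone was higher and 6 were lower (4.94% and 22.4%).

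The same pattern was read per cell, after each cell was thinned to 3000 UMIs so that depth was equal. Thinning left out 1006 cells at D6, 1157 at D10 and 100 in the tail that were shallower. In D6 code 4, 35.6% of cells had an *Axin2* UMI, 46.5% an *Nkd1* UMI, 36.0% an *Sp5* UMI, 24.1% a *Lef1* UMI and 17.0% a *Tcf7* UMI. In D6 code 1, 51.7% had *Dkk1*, 52.4% *Sp5* and 8.27% *Axin2*. In the pluripotent-like cells, *Sp5* was seen in 12.9% at D6 and 0.740% at D10, and *Axin2* in 8.50% and 0.925%. *Lef1* was seen in 16.3% and 15.3%, and *Tcf7* in 13.8% and 21.8%. *Lef1* was higher at D10 by CPM and higher at D6 by share, so no order between the days is read for it from the shares.

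**Figure D3:**
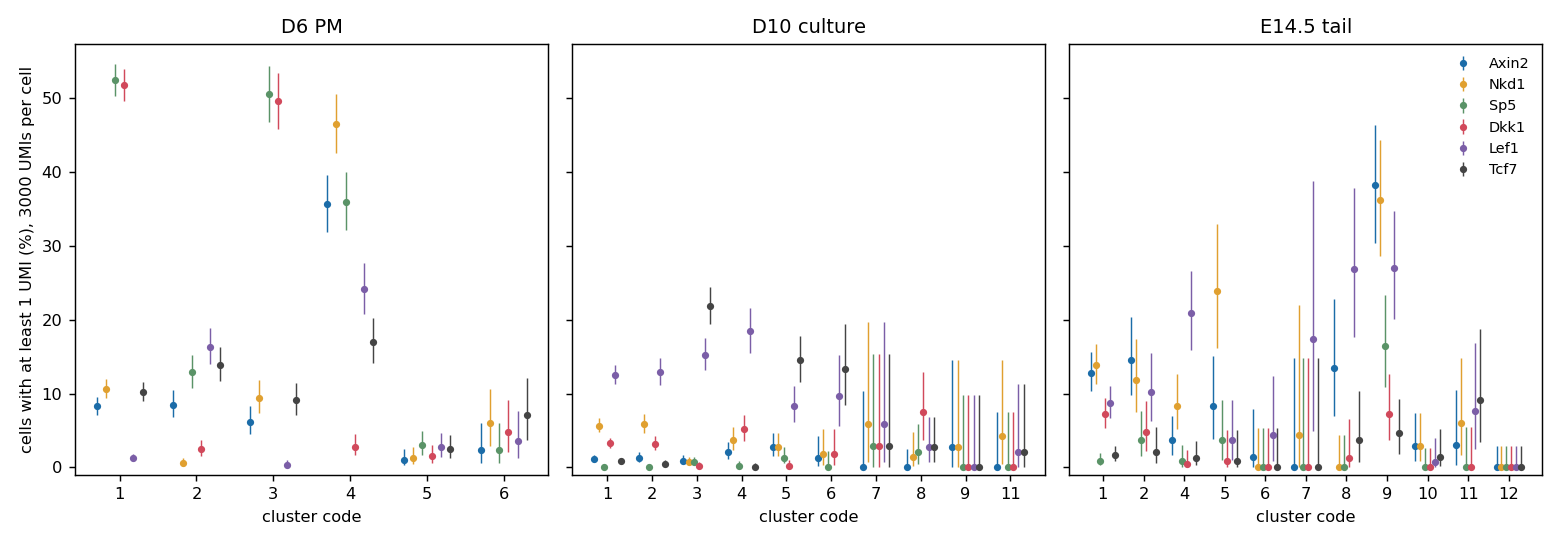
Percent of cells with at least 1 UMI of *Axin2*, *Nkd1*, *Sp5*, *Dkk1*, *Lef1* or *Tcf7* (vertical axis) after thinning every cell to 3000 UMIs, by cluster code, with exact 95% binomial intervals. *Axin2* and *Nkd1* reach 35.6% and 46.5% in D6 code 4 and 38.2% and 36.2% in tail code 9.

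Genes seen together in a cell were counted at the same depth. In D6 code 4, 17.0% of cells (14.1 to 20.2) had both an *Axin2* and an *Nkd1* UMI, where independent detection would give 16.6%. Detection of the 2 genes was therefore close to independent within this code. In D6 code 1 *Dkk1* and *Sp5* were both seen in 29.3% of cells (27.4 to 31.3), against 27.1% for independent detection. In tail code 1 *Axin2* and *Nkd1* were both seen in 3.24% of cells (2.04 to 4.87), against 1.78%. Of 49 pairs of genes and codes counted, the interval lay above the independent value in 6 and below it in 1. The pairs were a chosen set, the cells are not replicates, and the independent value was held fixed. The number expected by counting error alone was not worked out, so these counts are a description. The pair with its interval below was *Lef1* and *Rspo3*, both seen in 3.04% of D10 code 1 cells (2.42 to 3.78), against 4.12%.

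In the D10 culture, codes were again set against the other cells of the library. In the *Scx*-high code 1 *Rspo3* was higher, 3.43-fold (3.24 to 3.62), and 1 gene was lower, of 8 tested (8.24% and 16.6% of all tested genes). In the pluripotent-like code 3 *Tcf7* was higher and 4 genes were lower (14.3% and 22.4%). In the cartilage-like code 4 *Wnt5a* and *Dkk1* were higher, *Dkk1* by 2.47-fold (1.98 to 3.07), and 2 were lower (4.44% and 16.7%). The mixed code 5 had *Sfrp2* at 5.20-fold (4.45 to 6.07) and *Tcf7* at 2.33-fold (2.06 to 2.61), with 3 genes lower (7.18% and 19.2%). In code 8 *Dkk1* was 8.39-fold higher (6.70 to 10.4), with 95.9% of its 98 UMIs in 10 of the 155 cells, and 5 genes were lower (10.2% and 15.3%). Code 9, of 53 cells, had macrophage genes and collagens, with 0 macrophage marker UMIs in 48 cells and at least 2 in 4 cells. There *Wnt5a* came from 38 UMIs and *Sfrp2*, at 41.0 CPM, from 18 UMIs, both higher, and 5 genes were lower (12.7% and 23%). All of these *Wnt5a* and *Sfrp2* UMIs lay in the 48 cells.

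The other D10 codes held no gene of the 10 at least 2-fold above the rest. In the dividing *Scx*-high code 2, *Sfrp2* at 5.79 CPM and *Tcf7* at 2.15 CPM were lower and 0 genes were higher (14.8% and 2.9% of all tested genes). In code 6, where pluripotency genes meet haemoglobin genes, *Wnt5a*, *Rspo3* and *Dkk1* were lower (13.2%, against 7.15% higher), and *Tcf7* was 52.5 CPM. In the shallow code 7, with a median of 1424 UMIs, 6 genes were lower (22.8%, against 3.93% higher). In the endothelium-like code 11, of 58 cells, 0 genes were higher, where 1965 of all 13545 tested genes were. *Rspo3* and *Lef1* at 18.2 CPM each and *Tcf7* at 6.06 CPM were lower there (16.5%). The endothelial cells of D10 thus lacked the high *Rspo3* of D6 code 6, at 6 UMIs in all.

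The D10 pluripotent-like cells had little of the collagen transcripts of the *Scx*-high cells. Their *Rspo3* was 1.01% of the code 1 level, near the 1.19% to 1.62% of collagens, *Postn* and *Dcn*, whereas *Lef1* was 155% and *Axin2* 67.3%. *Wnt5a* and *Nkd1* lay between, at 7.66% and 16.6%.

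In the tail, the *Scx*-high code 1 had 4 of 9 genes at least 2-fold higher than the other cells and 2 lower (5.91% and 10.7% of all tested genes). The 4 were the secreted factors *Wnt5a*, *Rspo3*, *Sfrp2* and *Dkk1*, the last at 3.18-fold (2.74 to 3.69). The dividing *Scx*-high code 2 had *Dkk1* at 2.16-fold (1.83 to 2.55) and *Sp5* at 2.92-fold (2.30 to 3.70), with 0 lower (3.67% and 10%). Of their UMIs in tail code 2, 10 of the 186 cells held 70.1% for *Dkk1* and 81.0% for *Sp5*, so both values rest on few cells. Code 9 had 157 cells with *Col1a1* and *Dcn* and also the macrophage genes *Lyz2*, at 713 CPM, and *Tyrobp*, at 550 CPM. There 4 of 9 genes were higher and 1 lower (5.97% and 14.2%). *Sp5* was 62.9 CPM, 10.3-fold above the other cells (8.27 to 12.9), *Axin2* 143 CPM, 3.76-fold (3.32 to 4.25), *Nkd1* 158 CPM, 3.75-fold (3.34 to 4.21), and *Tcf7* 25.1 CPM, 3.57-fold (2.64 to 4.78). Code 9 was split by macrophage marker UMIs after the values were seen. In the 118 cells with 0 macrophage marker UMIs *Axin2* was 190 CPM, *Nkd1* 209 CPM and *Sp5* 87.8 CPM. In the 35 cells with at least 2 such UMIs they were 37.9, 44.0 and 13.5 CPM. The 4 cells with 1 such UMI had *Axin2* at 351 CPM, *Nkd1* at 407 CPM and *Sp5* at 92.4 CPM, from 19, 22 and 5 UMIs. *Tcf7* was 26.3 CPM with 0 such UMIs, 18.5 CPM with 1 and 23.2 CPM with at least 2. Over the whole code, 10 of the 157 cells held 59.0% of the *Tcf7* UMIs, with up to 18 in a cell.

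Of the wider pathway list, 66 genes were tested in tail code 9, with 8 higher and 20 lower (5.97% and 14.2% of all tested genes). *Wnt4*, a ligand, was 4.66-fold higher, *Rspo1* 4.11-fold and the DKK co-receptor *Kremen1* 2.94-fold. *Kremen2* was 19.1-fold lower. In the epidermis-like code 8 *Lef1* was the only gene of the 9 higher, with 6 lower (7.11% and 23.4%), and *Axin2* was 48.2 CPM. In the muscle-like code 5, 0 genes were higher and 7 lower (4.55% and 17.4%), although *Nkd1* was 91.9 CPM. In the cartilage-like code 4, 0 were higher and 4 lower (3.67% and 14.1%), with *Axin2* at 13.9 CPM and *Dkk1* at 5.44 CPM, while *Sfrp2* at 188 CPM and *Wnt5a* at 91.3 CPM stayed within 2-fold.

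In the endothelium-like tail code 11, *Tcf7* was 24.0 CPM, 3.12-fold above the other cells, and 7 genes were lower (8.66% higher and 25.6% lower among all tested genes). *Rspo3* was 3.53 CPM there, from 5 UMIs. In the neuron-like code 10 all 9 were lower and 0 higher (28.8% and 16.7%), with *Axin2* at 14.8 CPM and *Lef1* at 1.78 CPM. In the shallow code 7, *Wnt5a*, *Rspo3* and *Sfrp2* were lower and 0 genes higher (19.4% and 7.5%). All 9 were lower in codes 6 and 12, where red blood cell genes lead and 88.1% and 87.6% of all tested genes were lower (0.712% and 1.01% higher), so the count there is the background.

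The *Scx*-high and cartilage-like codes were then compared between the D10 culture and the E14.5 tail, which asks how far cells made from mESCs match the embryonic cells. For *Scx*-high code 1, 8 genes were tested. Of these 0 were at least 2-fold higher in culture, where 8.33% of all tested genes were, and 5 were lower, where 13.7% were. *Sfrp2* was 9.16 CPM in culture and 494 CPM in the tail, 53.9-fold lower (45.8 to 63.7). *Axin2* was 4.94 and 48.3 CPM, 9.77-fold lower (7.72 to 12.5). *Wnt5a* was 8.05-fold lower (7.17 to 9.05), *Dkk1* 2.83-fold (2.43 to 3.30) and *Nkd1* 2.81-fold (2.44 to 3.23). *Rspo3* was 1.69-fold and *Lef1* 1.60-fold of the tail level, and *Tcf7* 0.599-fold. *Sp5* had 0 UMIs in culture and 32 in the tail, under the minimum of 100 UMIs, so it is not counted. With 3 counts put in place of the 0, *Sp5* was 17.5-fold lower in culture, a value that is not a bound. Over all tested genes the median log2 ratio of culture to tail was −0.18.

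**Figure D4:**
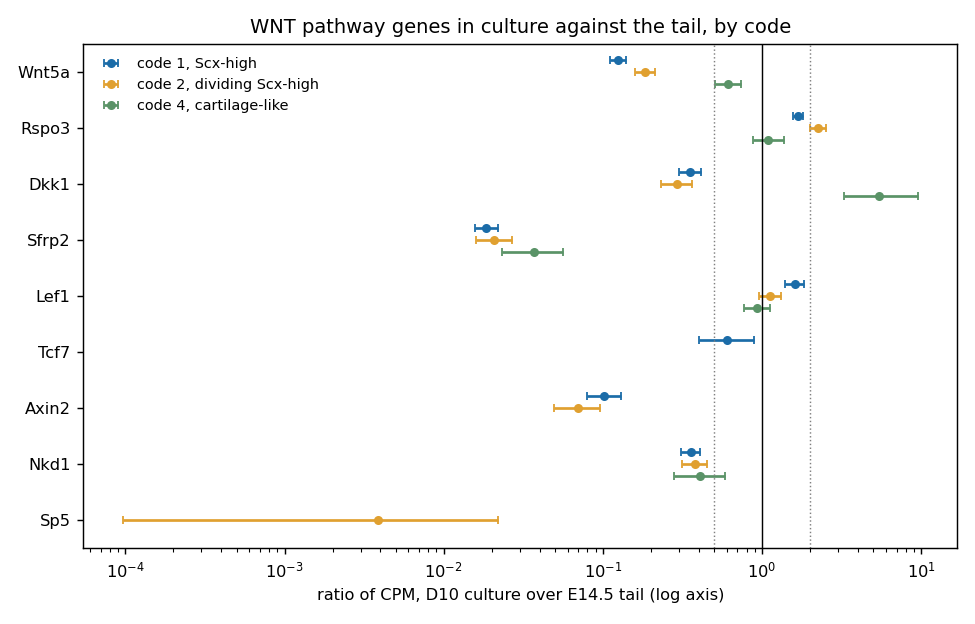
Ratio of CPM in the D10 culture to CPM in the E14.5 tail on a log axis for the *Scx*-high codes 1 and 2 and the cartilage-like code 4, with bars for the exact 95% counting interval, dotted lines at 2-fold and only genes with at least 100 UMIs. *Sfrp2* is 53.9-fold, 48.0-fold and 27.1-fold lower in culture in the 3 codes, while *Rspo3* is within 2-fold or higher in culture.

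In the dividing *Scx*-high code 2, 1 of 8 genes was higher in culture and 6 were lower (7.28% and 8.65% of all tested genes). *Sfrp2* was 48.0-fold lower, *Axin2* 14.4-fold (10.4 to 20.3), *Wnt5a* 5.41-fold, *Dkk1* 3.43-fold and *Nkd1* 2.65-fold. *Sp5* had 1 UMI in culture and 105 in the tail, a 260-fold ratio with an interval from 45.6 to 10354. The *Sp5* and *Dkk1* ratios rest on few tail cells, as 10 of the 186 held 81.0% and 70.1% of their tail UMIs. *Rspo3* was 2.25-fold higher in culture (1.99 to 2.54). In the cartilage-like code 4, 1 of 6 genes was higher in culture and 2 were lower (6.25% and 8.35%). *Sfrp2* was 27.1-fold lower (17.9 to 43.1) and *Nkd1* 2.45-fold lower. *Dkk1* was 29.5 CPM in culture and 5.44 CPM in the tail, 5.41-fold higher (3.25 to 9.51), the opposite side from the *Scx*-high codes. The tail value came from 18 UMIs in 5 of the 241 cells. In culture 10 of the 855 cells held 41.8% of the *Dkk1* UMIs. *Wnt5a*, *Rspo3* and *Lef1* stayed within 2-fold, at 0.613-fold, 1.09-fold and 0.93-fold.

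Of the wider list, 56 genes were tested in code 1, with 4 higher in culture and 24 lower (8.33% and 13.7% of all tested genes), and a median log2 ratio of −0.64 (−0.18 over all tested genes). *Wnt2* had 1 UMI in culture and 396 in the tail. The receptor *Fzd10* was 96.1-fold lower, and the R-spondin genes *Rspo1* and *Rspo2* were 12.4-fold and 8.47-fold lower. *Fzd6* and *Fzd1* were 7.82-fold and 2.35-fold higher in culture. In code 2 the list had 5 higher and 15 lower of 49, with a median of −0.47, and in code 4, 3 higher and 10 lower of 40, with a median of −0.41. The shares over all tested genes were 7.28% and 8.65% in code 2 and 6.25% and 8.35% in code 4, and the medians over all tested genes −0.12 and −0.11.

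Codes 5 and 8 hold unlike cells in culture and tail, and their ratios describe the codes. In code 5, mixed in culture and muscle-like in the tail, 2 of 4 genes were higher in culture and 2 lower (14.3% and 13.7% of all tested genes). In code 8, epithelial and endoderm-like in culture and epidermis-like in the tail, 1 of 2 was higher and 1 lower (12.1% and 11%). In code 9, 0 of 7 were higher and 4 lower (9.13% and 26.3%). Code 9 had macrophage genes in both, but at least 2 macrophage marker UMIs in 4 of the 53 culture cells and 35 of the 157 tail cells. *Axin2* had 1 UMI in the 53 culture cells of code 9 and 347 in the 157 tail cells, and *Nkd1* 1 and 384. *Sp5* had 0 and 153, at least 9.21-fold lower.

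The genes whose pattern was most like that of each of the genes were found by Pearson correlation of log2(CPM + 10) over 27 groups of cells, the codes with at least 50 cells, among 8459 genes. The groups come from 3 libraries and share library and depth, so these values are a description. With Spearman's rho 7 of the 27 places filled this way kept their gene, 0 of 3 for *Dkk1*, *Rspo3* and *Sfrp2*. Between the chosen genes themselves, over the same groups, Pearson's r was 0.79 for *Dkk1* and *Sp5*, 0.77 for *Axin2* and *Nkd1*, and 0.73 for *Wnt5a* and *Sfrp2*. *Wnt5a* was most like the fibroblast genes *Pdgfra* (0.92), *Col16a1* (0.90) and *Col6a2* (0.89). *Axin2* was most like *Tnfrsf19* (0.88), with *Abca9* and *Spry2* next, and *Nkd1* most like *Ism1* (0.82). *Dkk1* was most like *Slc4a4* (0.88) and *Sp5* like *Erich2* (0.83), and each of these was among the first 3 genes for both. *Tcf7* was most like *Lactb2* (0.86), with *Trim71*, an RNA-binding gene of pluripotent cells, next. *Rspo3* was most like *St3gal1* (0.80), *Lef1* like *Smarcd2* (0.78) and *Sfrp2* like *Hoxa11os* (0.84).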

How the data were processed

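The authors made droplet libraries with a 3′ kit, depleted dead cells, aligned and counted with Cell Ranger and clustered with Seurat 3.0. Reads mapping to several places were ignored, and the genome build is not given in the sources used here. The deposited values are counts of UMIs per gene and cell, not normalized, with a cluster code for each cell. The paper states that cells were removed by mitochondrial share and by low or high transcript number. Every deposited cell was kept here, and 10, 3 and 4 barcodes were shared between pairs of libraries. Here counts were summed per code and library in Python 3.11.15 (NumPy 2.4.6, SciPy 1.17.1), and Scanpy 1.11.5 called doublets (81 at D6, 116 at D10, 9 in the tail), which were left out only as an alternative. Library totals were 51858825, 53403944 and 31343741 UMIs. Intervals are exact (Poisson, conditional binomial for ratios, Clopper-Pearson for shares) and cover counting error only. Each group is 1 library, so no p-value was computed. On simulated data for D6 against D10, with 200 of 15831 genes changed 4-fold, 195 were recovered and 0 unchanged genes were called. These counts were drawn as Poisson, without clumping in cells or differences between libraries. The simulation thus checks the calculation only and says nothing of how far the calls on the real data hold.

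The genes and lists were chosen with earlier results of these data known. All 10 genes are described in full. Of 84 other pathway genes, up to 5 in each direction with the largest ratio past 2-fold were eligible to be named, and for each of the 10 the 3 most correlated genes among those with at least 50 CPM in a group. Cell names come from marker lists rebuilt here and may differ from those of the study. Alternatives left out doublets or cells under 1000 genes, changed the CPM denominator, the scaling, the weight of cells, the count minimum and the fold.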

Additional observations from a re-analysis of the deposited data

Results flagged for a closer look

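The culture to tail ratio went opposite ways between codes for *Dkk1* and *Lef1*. With 1 library per condition the difference was not tested for either gene. *Dkk1* in the D10 culture was 0.353-fold of the tail level in the *Scx*-high code 1 and 0.291-fold in the dividing code 2. In tail code 2, 10 of 186 cells held 70.1% of the *Dkk1* UMIs. The *Dkk1* ratio was 5.41-fold in the cartilage-like code 4, with 18 tail UMIs in 5 of 241 cells, and 27.8-fold in code 8. In code 8, 95.9% of the culture UMIs lay in 10 of 155 cells. The culture cells there are epithelial and endoderm-like and the tail cells epidermis-like. *Lef1* was 2.34-fold of the tail level in code 5, 0.0396-fold in code 8 and 0.203-fold in code 9. The cells of codes 5 and 8 differ in kind between culture and tail. Code 9 had macrophage genes with collagens in both, but at least 2 macrophage marker UMIs in 4 of 53 culture cells and 35 of 157 tail cells.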

How the results depend on the processing

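No paired analysis was possible because each condition has 1 library. With 1 library per condition the limit is replication, and genes under 100 UMIs over both sides, as *Nkd1* in the pluripotent-like cells, were left out of the counts at this depth. Of the counts of genes past 2-fold, those that moved by over 1.5 times were these. Between D6 and D10 the count lower at D6 went from 1 to 2 with cells weighted equally, to 2 at 1.5-fold and to 0 at 4-fold. In the pluripotent-like cells the count lower at D6 went from 0 to 1 without doublets, to 1 with cells weighted equally and to 2 at 1.5-fold. Over D6 codes the higher count of 10 became 5 at 4-fold. Over D10 codes the higher count of 9 became 17 at 1.5-fold and 4 at 4-fold, and the lower count of 34 became 19 at 4-fold and 15 where the bound of the interval had to pass 2-fold. Over tail codes the higher count of 12 became 3 at 4-fold. Between culture and tail the higher count of 5 became 9 with a minimum of 20 UMIs, 13 with no minimum, 3 at 4-fold and 3 by the interval bound, and the lower count of 20 became 36 with a minimum of 20 UMIs and 41 with none. Of shares of cells, 57 were at least 10% after thinning to 3000 UMIs, 90 at 5000 UMIs and 104 without thinning. Ratios turned in tail code 6 alone, a code with red blood cell genes. *Wnt5a* there became 1.41 without mitochondrial, ribosomal protein and haemoglobin genes, and relative to the median ratio of all genes *Wnt5a* became 1.93, *Rspo3* 1.16, *Sfrp2* 1.17 and *Lef1* 1.05. The cause was not tested. Without doublets 11 of 283 ratios moved beyond their interval, and with cells weighted equally 68 of 283. The alternatives that left cells with macrophage or red blood cell UMIs out of tail code 9 and D6 code 6 were chosen after seeing the data, and moved 7 of 99 and 1 of 54. Without cells under 1000 genes, D10 code 9 and tail codes 6 and 12 had too few cells, and they and the culture to tail comparisons of codes 6 and 9 were not run. Of the 27 places for the most correlated genes, some held by the same gene, 7 kept their gene with Spearman's rho. With groups of at least 20 cells 14 did, and with a pseudocount of 1, 16 did.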

Other observations

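Some codes under 50 cells stood high for these genes and are given as values. Tail code 3 (49 cells, epidermal genes) had *Lef1* at 235 CPM and *Axin2* at 58.4 CPM. Tail code 14 (38 cells, glial genes) had *Axin2* at 61.1 CPM. D10 code 13 (43 cells) had *Dkk1* at 97.2 CPM, from 40 UMIs.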
